A study of Mus musculus with 14 samples.

Results

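NK1.1+ and NK1.1- ILTCk, T cells of the αβ lineage named for an innate-like and killer character, were compared across all genes in 2 bulk RNA-sequencing libraries of each group taken by their labels, 4 of the 14 samples of the series. Such cells are self-reactive and carry cytotoxic features, and the NK1.1+ cells studied here came from mouse tumours. The mice were labelled retrogenic, that is, made with blood-forming cells carrying an introduced T cell receptor. Per the labels' protocols, tumours were cut up and digested with collagenase and DNase, leukocytes were enriched on Percoll, and NK1.1+ ILTCk were sorted as CD45+ cells positive for TCRβ, CD8α and NK1.1 and negative for TCRγδ, CD4 and PD-1. Not given in the sources used here are how the NK1.1- cells were gated, from which tissue and tumour model they came, and the age, strain and introduced receptor for both groups. The titles call both groups ILTCk, while another label names the cells ILTCkP, the name the series gives to the thymic progenitors. The labels number the libraries 1 and 2 in each group but do not say that they came from separate mice, so each p-value covers only library-to-library spread, which may be technical. Another group of 2 libraries in the same count table, PD1+ Tconv (conventional T cells sorted from tumours with the same gate but PD-1-positive and NK1.1-negative), added to the estimate of spread and gives a reference level.

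NK1.1 is the product of Klrb1c, a C-type lectin receptor of the NKR-P1 family carried by natural killer (NK) cells and by some T cells. The genes of NKR-P1, of CD94 and NKG2, and of the Ly49 receptors (Klra genes) lie together in the NK gene complex on mouse chromosome 6. NK1.1 and several activating Ly49 and NKG2 receptors signal through adaptors with an immunoreceptor tyrosine-based activation motif (ITAM), FcRγ (Fcer1g) and DAP12 (Tyrobp), which recruit the kinases Syk and Zap70. A conventional CD8 T cell, by contrast, carries the αβ form of CD8 and depends on costimulators such as CD28 and ICOS.

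The values were read counts per gene. The totals were 28044732 and 22153656 counts in NK1.1- ILTCk replicates 1 and 2 and 19837739 and 25058242 counts in NK1.1+ ILTCk replicates 1 and 2. Levels are given on 2 scales. CPM, counts relative to library size, were scaled to the body of all genes by TMM. The T cell receptor (TCR) scale divides a gene's counts by the summed counts of Cd3e, Cd3d, Cd3g, Trac, Trbc1 and Trbc2 in the same library, and is written as counts per 1000 TCR counts. That sum was 48084 and 22699 counts in the NK1.1- libraries and 64904 and 12684 in the NK1.1+ libraries, or 1715 and 1025 against 3272 and 506 CPM before TMM. NK1.1+ replicate 1 was therefore the richest and NK1.1+ replicate 2 the poorest of the 4 in T cell receptor transcripts, and the groups overlapped. The 6 genes of the sum did not keep one ratio. Cd3e stood at 144 and 81.1 against 166 and 154 per 1000 TCR counts, Trac at 116 and 103 against 72.8 and 83.3 and Trbc1 at 112 and 125 against 76.7 and 93.7, so that 2 of the 6 separated upward and 2 downward, and Cd3d and Trbc2 overlapped.

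Transcripts of cells other than T cells were present in all 4 libraries, and unevenly. The 18 macrophage and monocyte markers summed to 4963 and 4466 CPM in NK1.1- ILTCk and to 10205 and 32016 CPM in NK1.1+ ILTCk, with no marker at 0 in any library. Set against the T cell receptor transcripts, the same sums were 3499 and 4317 counts per 1000 TCR counts in NK1.1- ILTCk and 3522 and 55990 in NK1.1+ ILTCk. By this sum NK1.1+ replicate 2 stood apart, while in NK1.1+ replicate 1 the single markers were split, with 9 of the 18 above both NK1.1- libraries on the TCR scale, 6 below both and 3 between them. Salivary and lacrimal gland markers took 5.04% and 12.0% of all counts in the NK1.1- libraries and 0.267% and 8.66% in the NK1.1+ libraries, with 4 or 5 of the 20 listed genes at 0 in each. Transcripts over 8 kb took 3.26% and 2.80% of counts in NK1.1- ILTCk and 3.19% and 1.91% in NK1.1+ ILTCk, lowest in NK1.1+ replicate 2. Levels below are given per library, on the CPM scale, the TCR scale or both.

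**Figure D1:**
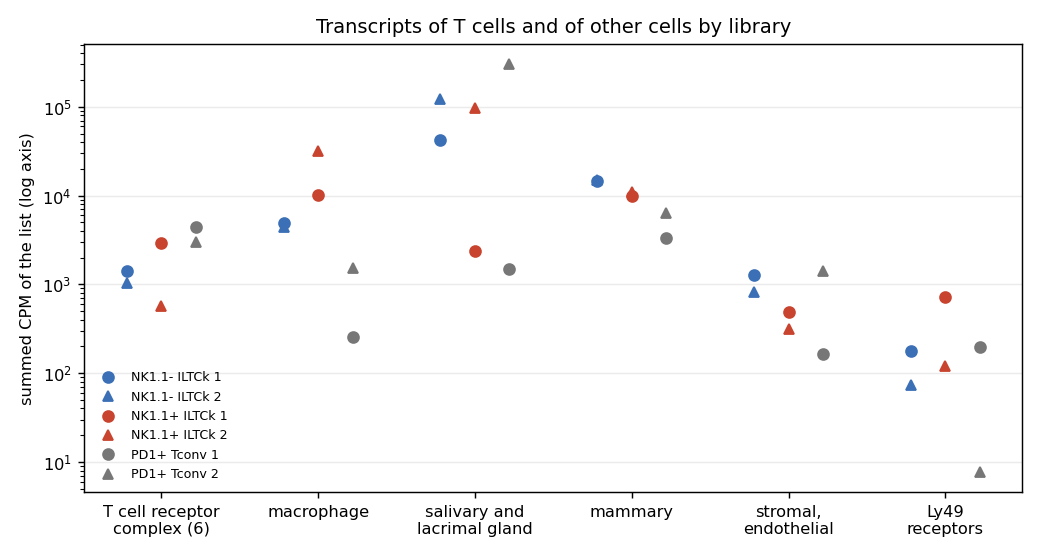
Summed CPM (log axis) of marker lists in the 6 libraries of the table, with one point per library. NK1.1+ replicate 2 had the highest macrophage sum, 32016 CPM, and the lowest sum of the 6 T cell receptor complex genes, while NK1.1+ replicate 1 had the lowest gland sum of the 4 ILTCk libraries.

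The start regions of 4 genes that stand for the contrast are printed so that the transcripts can be placed: the NK1.1 gene itself, a Ly49 receptor and NKp46 (Ncr1) as genes with higher levels in NK1.1+ ILTCk, and granzyme K, which heads the named genes with lower levels. Each is the 250 bases before the RefSeq start on GRCm38.p6, read 5′ to 3′ along the gene's strand. They lie at chr6:128788642-128788891 (minus strand, Klrb1c), chr6:130386875-130387124 (minus strand, Klra1), chr7:4337465-4337714 (plus strand, Ncr1) and chr13:113180966-113181215 (minus strand, Gzmk). Capitals mark matches to TGTGGTT, the core bound by RUNX factors.
Klrb1c: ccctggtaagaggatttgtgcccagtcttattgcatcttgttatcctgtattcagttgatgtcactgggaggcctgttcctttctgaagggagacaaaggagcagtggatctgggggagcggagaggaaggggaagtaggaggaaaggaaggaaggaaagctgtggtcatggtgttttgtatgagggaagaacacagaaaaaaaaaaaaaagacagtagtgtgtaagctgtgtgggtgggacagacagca
Klra1: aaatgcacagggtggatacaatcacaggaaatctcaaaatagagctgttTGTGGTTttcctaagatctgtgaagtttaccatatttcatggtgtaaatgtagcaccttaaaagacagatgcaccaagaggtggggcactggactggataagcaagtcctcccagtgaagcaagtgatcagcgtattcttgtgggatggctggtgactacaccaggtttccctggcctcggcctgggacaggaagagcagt
Ncr1: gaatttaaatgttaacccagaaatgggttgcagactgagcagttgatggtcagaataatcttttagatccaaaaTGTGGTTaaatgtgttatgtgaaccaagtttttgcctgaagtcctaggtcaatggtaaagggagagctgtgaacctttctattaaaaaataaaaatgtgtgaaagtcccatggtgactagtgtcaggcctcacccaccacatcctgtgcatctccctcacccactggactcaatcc
Gzmk: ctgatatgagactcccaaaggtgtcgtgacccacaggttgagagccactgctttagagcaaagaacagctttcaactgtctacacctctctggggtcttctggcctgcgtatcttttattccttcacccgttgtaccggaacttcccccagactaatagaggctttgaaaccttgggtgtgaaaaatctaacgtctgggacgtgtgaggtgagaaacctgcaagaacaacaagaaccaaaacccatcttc
The RUNX letters were found from 201 to 195 bases before the start of Klra1 and from 176 to 170 bases before the start of Ncr1, and 4.46% of 27025 mouse promoters of the same length hold them on either strand. AGGTGTGA, a T-box core read by T-bet and Eomes, and GAGGAAGT, a PU.1 core, were searched on both strands too and were in none of the 4 windows. They are held by 1.14% and 2.42% of promoters, and the motifs do not overlap one another in these windows.

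No gene passed edgeR's quasi-likelihood test between NK1.1+ and NK1.1- ILTCk at an adjusted p under 0.05: 0 of 18091 genes were called (0%), with a lowest adjusted p of 0.9998. At an unadjusted p under 0.05, 395 genes were higher (2.18%) and 317 lower (1.75%) in NK1.1+ ILTCk, together fewer than the 5% that a table with no difference would give. limma-voom called 0, with 774 genes at an unadjusted p under 0.05. DESeq2 called 57 genes, 36 higher (0.199%) and 21 lower (0.116%). With size factors set to the T cell receptor transcripts, DESeq2 called 5 genes, each of which it also called under its own scaling. edgeR without a filter on low counts called 167 genes of 31953, 127 higher (0.397%) and 40 lower (0.125%), among them 44 of the DESeq2 calls. In bulk samples, fewer cells of a type and less RNA per cell cannot be told apart, and this holds for every level below.

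The scale decides how often the 2 groups separate. In CPM, both NK1.1+ libraries lay above both NK1.1- libraries for 18.6% of genes and below them for 18.9%. On the TCR scale the shares were 3.37% above and 10.8% below. The median log2 difference of all genes was 0.01 in CPM and 0.30 on the TCR scale, which is the shift to hold beside each log2 difference below. With 2 libraries against 2, an exact permutation test of a single gene cannot go below p = 0.333.

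NK1.1's own transcript checks the sort. Klrb1c stood at 29.9 and 12.4 CPM in the NK1.1- libraries and at 309 and 68.5 CPM in the NK1.1+ libraries, and at 21.1 and 12.0 against 107 and 119.8 counts per 1000 TCR counts. The groups did not overlap on either scale. On the TCR scale the NK1.1+ libraries differed 1.12-fold from each other, and their mean was 6.85 times that of the NK1.1- libraries. The log2 difference was 3.16 ± 1.28 (SE) in CPM and 2.78 ± 1.25 on the TCR scale, with edgeR's unadjusted p of 0.0426 and 0.0264. Without NK1.1+ replicate 1 the CPM value was 1.69. Since NK1.1 protein defined the gate, this is a check of the labels, in their direction, and not a finding. NK1.1- libraries were not free of the transcript, and PD1+ Tconv held 39.5 and 2.35 CPM.

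Ly49 receptors, which read MHC class I or related ligands as inhibitory or activating partners, had all 10 tested members above 0 in log2 difference on both scales. Their median was 1.74 in CPM and 1.20 on the TCR scale, beside 0.01 and 0.30 for all genes. Relative to the T cell receptor, 8 of the 10 had both NK1.1+ libraries above both NK1.1- libraries and 0 were below, where 3.37% of all genes lay above. In CPM, 3 of the 10 separated upward, beside 18.6% of all genes. NK1.1+ replicate 2 had the lowest T cell receptor counts of the 4 libraries. None had an unadjusted p under 0.05 in edgeR's test in CPM without a replicate block, so the direction of the list is a description and no call.

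Klra1 (Ly49A, an inhibitory receptor) stood at 15.0 and 8.41 counts per 1000 TCR counts in NK1.1- ILTCk and at 40.0 and 45.9 in NK1.1+ ILTCk, in CPM at 21.2 and 8.70 against 116 and 26.2. Both NK1.1+ libraries were above both NK1.1- libraries on each scale. Klra7 (Ly49G) stood at 43.4 and 21.8 against 101 and 70.2, and Klra5 at 31.6 and 18.1 against 49.4 and 50.9, both per 1000 TCR counts. These too did not overlap between the groups. Klra17 gave 1.56 and 0.441 against 7.10 and 2.52 per 1000 TCR counts, the widest spread of these 4 between the NK1.1+ libraries, 2.82-fold. The CPM differences rest largely on NK1.1+ replicate 1. Without it the log2 difference of Klra1 went from 2.24 to 0.81 and that of Klra17 from 3.03 to 0.10, and those of Klra5 and Klra7 turned negative. The Klra genes are near-identical copies of each other, so reads may have been shared or lost among them and the split between single members is uncertain.

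The NKR-P1, NKG2 and CD94 list ran in both directions. Without Klrb1c, whose protein defined the gate, 5 of 12 members separated upward and 3 downward on the TCR scale, beside 3.37% and 10.8% of all genes. In CPM 0 separated upward and 1 downward, beside 18.6% and 18.9% of all genes. The median log2 difference of the 12 was 0.84 in CPM and 0.32 on the TCR scale, the latter close to the 0.30 of all genes. Klrb1a, an activating relative of NK1.1, stood at 23.1 and 9.16 against 42.8 and 31.1 counts per 1000 TCR counts. Klrd1 (CD94, the shared partner of the NKG2 chains) stood at 71.9 and 73.7 against 90.7 and 106, and Klrc2 (activating NKG2C) at 7.59 and 5.51 against 11.5 and 12.9, per 1000 TCR counts. In each of the 3, both NK1.1+ libraries were higher on the TCR scale, none was called, and the CPM difference turned negative without NK1.1+ replicate 1. Klrg1, an inhibitory receptor of differentiated effector cells, went the other way, 5.72 and 7.62 against 1.59 and 3.00 per 1000 TCR counts. Its groups did not overlap on either scale.

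Ncr1 encodes NKp46, an activating receptor that marks NK cells and innate lymphoid cells and is rare in T cells. It stood at 1.68 and 2.83 CPM in NK1.1- ILTCk and at 37.9 and 7.17 CPM in NK1.1+ ILTCk, and at 1.19 and 2.73 against 13.1 and 12.5 per 1000 TCR counts. The NK1.1+ libraries differed 1.04-fold from each other on the TCR scale and had a mean 6.54 times that of the NK1.1- libraries, beside 6.85 for Klrb1c. The log2 difference was 3.32 ± 1.43 in CPM and 2.71 ± 1.34 on the TCR scale, with unadjusted p of 0.0528 and 0.0430. Without NK1.1+ replicate 1 the CPM value was 1.67. PD1+ Tconv held 1.97 and 0 CPM. The NK1.1+ gate asked for TCRβ, while transcripts of cells other than T cells were present in all 4 libraries. The part of NK cells and innate lymphoid cells (ILC) in the Ncr1 level was not tested. The list of ILC and NK cell markers that holds Ncr1 had 3 of 13 members separating upward and 4 downward on the TCR scale. The shares of all genes were 3.37% and 10.8%. In CPM 2 members of that list separated upward and 3 downward, beside 18.6% and 18.9% of all genes. The sum of the list was 571 and 1986 against 359 and 4270 per 1000 TCR counts. Cd244 (2B4, a receptor of the SLAM family) stood at 89.1 and 34.9 against 139 and 123 per 1000 TCR counts, and its CPM difference turned negative without NK1.1+ replicate 1. Sh2d1b1, which encodes EAT-2, an adaptor of SLAM receptors in NK cells, stood at 14.6 and 7.27 against 28.9 and 29.5, per 1000 TCR counts. Sh2d1a, which encodes SAP, the adaptor of the same receptors in T cells, stood at 7.59 and 15.0 against 1.69 and 5.99, per 1000 TCR counts. The libraries of the 2 groups did not overlap for any of these 3 on the TCR scale, with Sh2d1b1 above and Sh2d1a below in NK1.1+ ILTCk.

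**Figure D2:**
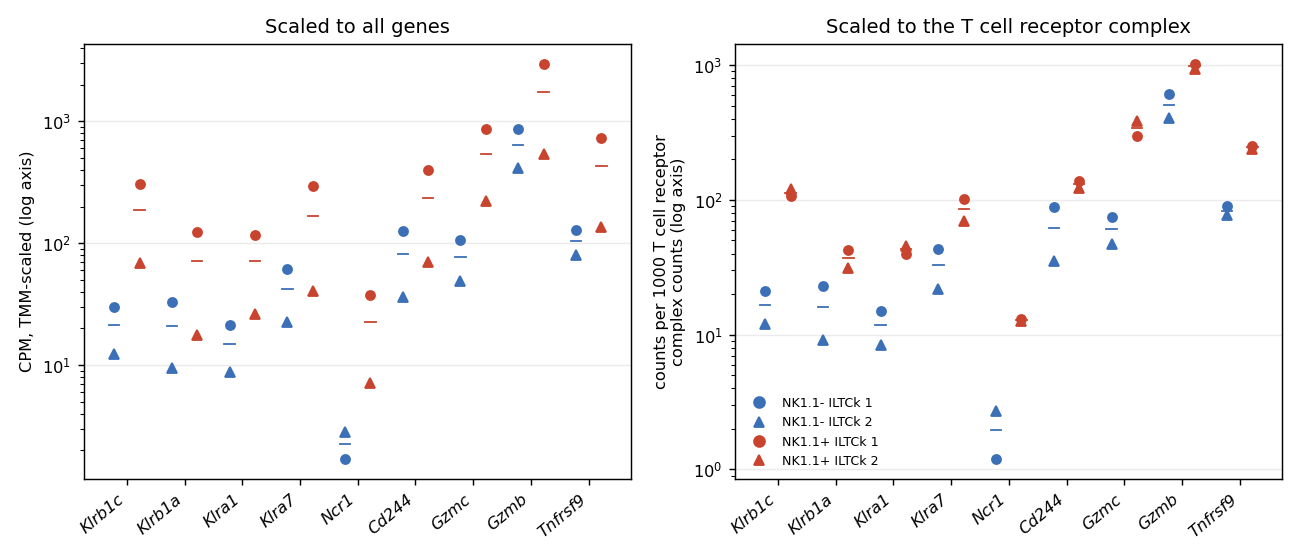
Levels of NK receptor, granzyme and Tnfrsf9 transcripts in the 4 ILTCk libraries, in CPM (left) and in counts per 1000 TCR counts (right), both on log axes, with a short line at each group's mean. In the right panel both NK1.1+ libraries lie above both NK1.1- libraries for each of the 9 genes, beside 3.37% of all genes. The 9 were picked for the figure, Klra7 and Cd244 after their values were seen, and Klrb1c is a gate gene. Klrg1, which lay below on both scales, is not shown. In the left panel the spread between NK1.1+ replicates 1 and 2 is wide, 4.51-fold for Klrb1c.

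Fcer1g and Tyrobp, the ITAM adaptors, had higher levels in both NK1.1+ libraries, and the summed CPM of the macrophage markers was higher there too. Fcer1g stood at 318 and 226 CPM in NK1.1- ILTCk and 1444 and 1227 CPM in NK1.1+ ILTCk, and Tyrobp at 258 and 181 against 1089 and 788 CPM. Both were DESeq2 calls and neither overlapped between the groups. Their log2 differences were 2.30 ± 0.54 and 2.10 ± 0.44, with unadjusted edgeR p of 0.00357 and 0.00192.

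On the TCR scale Fcer1g stood at 224 and 218 against 498 and 2146, and Tyrobp at 182 and 175 against 376 and 1378. NK1.1+ replicate 1 held 2.25 times the NK1.1- mean of Fcer1g and 2.11 times that of Tyrobp. In the same library the macrophage markers Csf1r, C1qa, C1qc and Adgre1 stood at 2.15, 1.88, 1.98 and 1.93 times their NK1.1- means. They are the members of the macrophage list with the smallest p. Of all 18 markers on the list, 9 lay above both NK1.1- libraries in NK1.1+ replicate 1, 6 below both and 3 between them. The list summed to 3522 counts per 1000 TCR counts there, against 3499 and 4317 in the NK1.1- libraries. Macrophages express both adaptors. Their part in these 2 differences was not tested.

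Syk and Fcgr3 separated in CPM but overlapped on the TCR scale. Syk, the kinase that binds phosphorylated ITAMs, stood at 22.9 and 7.97 against 44.7 and 128 CPM and at 16.1 and 7.71 against 15.4 and 224 per 1000 TCR counts. Fcgr3 (CD16) stood at 86.1 and 85.4 against 218 and 702 CPM and at 60.7 and 82.6 against 75.3 and 1227 per 1000 TCR counts, and was a DESeq2 call. NK1.1+ replicate 2 was the highest library for both genes on each scale, and NK1.1+ replicate 1 lay inside the range of the NK1.1- libraries on the TCR scale. At an unadjusted p under 0.05 in CPM, 3 of the 18 tested ITAM adaptors and kinases were higher and 1 lower, beside 2.18% and 1.75% of all genes. In CPM 6 of the 18 separated upward and 2 downward, beside 18.6% and 18.9% of all genes. On the TCR scale 7 separated upward and 4 downward, beside 3.37% and 10.8% of all genes. Among those that separated downward was Lat, the scaffold that links the T cell receptor to its downstream enzymes, at 68.9 and 63.7 against 19.9 and 34.4 per 1000 TCR counts. Lat2, the related scaffold of B cells and myeloid cells, stood at 26.2 and 13.0 against 38.6 and 67.8, per 1000 TCR counts.

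**Figure D3:**
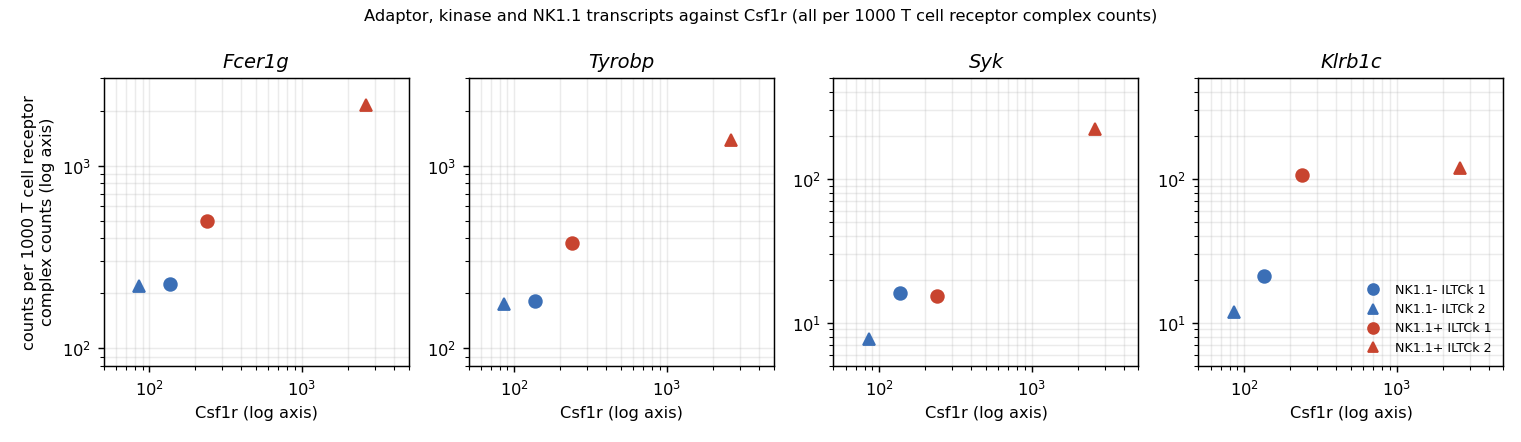
Fcer1g, Tyrobp, Syk and Klrb1c (vertical axes) against the macrophage gene Csf1r (horizontal axes), all in counts per 1000 TCR counts on log axes, one point per ILTCk library. Klrb1c is level between the NK1.1+ libraries at 107 and 119.8, whereas Fcer1g, Tyrobp and Syk are highest in NK1.1+ replicate 2, where Csf1r is 11.0 times that of NK1.1+ replicate 1.

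On the TCR scale, the granzymes named here divided into those above and 1 far below. Among 16 tested cytotoxic effectors, 6 separated upward and 3 downward on the TCR scale, beside 3.37% and 10.8% of all genes. In CPM 3 separated upward and 2 downward, no more than the 18.6% and 18.9% of all genes would give. Gzmc, a granzyme of strongly stimulated killer cells, stood at 74.7 and 47.0 counts per 1000 TCR counts in NK1.1- ILTCk and at 298 and 385 in NK1.1+ ILTCk. The NK1.1+ mean was 5.61 times the NK1.1- mean, with a log2 difference of 2.81 ± 1.30 in CPM and 2.49 ± 1.34 on the TCR scale. Gzmb (granzyme B, the main killing protease of CD8 T and NK cells) stood at 616 and 403 against 1025 and 938, and Gzma at 352 and 307 against 522 and 765, per 1000 TCR counts. None of the 3 overlapped between the groups on the TCR scale. Without NK1.1+ replicate 1, the CPM difference of Gzmc was 1.51 and that of Gzmb turned negative.

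Gzmk (granzyme K, found in memory-like and chronically stimulated CD8 T cells) stood at 32.5 and 60.9 CPM in NK1.1- ILTCk and at 3.75 and 1.67 CPM in NK1.1+ ILTCk. Per 1000 TCR counts the values were 22.9 and 58.9 against 1.29 and 2.92. Both NK1.1+ libraries were far below both NK1.1- libraries, and the NK1.1- mean was 19.4 times the NK1.1+ mean on the TCR scale. Its log2 difference was -4.10 ± 0.59, with an unadjusted edgeR p of 0.000206. DESeq2 gave an adjusted p of 2.79e-08 with its own size factors and 0.0258 on the TCR scale, and over 18 alternatives the adjusted p ran from 9.15e-09 to 1. PD1+ Tconv held more, 430.0 and 331 CPM, so the NK1.1- libraries lay between the other 2 groups.

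Cd5l was the only gene with higher levels that DESeq2 called on both scales. It is a secreted protein of tissue macrophages and stood at 1.77 and 1.96 against 12.5 and 99.6 CPM, nearly all of it in NK1.1+ replicate 2. The other 3 genes that DESeq2 called on both scales, all lower, were named after their values were seen. Ccl22, a chemokine of dendritic cells and macrophages, had 207 and 66 counts in the NK1.1- libraries and 0 and 0 in the NK1.1+ libraries. Apol7c, of the apolipoprotein L family, had 30 and 218 counts against 0 and 0. Slc16a11, of the monocarboxylate transporter family, had 49 and 295 counts against 7 and 0. These 3 rest on genes at or near 0 in NK1.1+ ILTCk, and for Apol7c and Slc16a11 the NK1.1- libraries stood well apart from each other.

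Coreceptor and costimulation genes of conventional T cells mostly stood lower in NK1.1+ ILTCk. The list of the TCR complex, coreceptors and costimulation has 18 tested members, of which 6 form the TCR scale itself. Of the other 12, which hold the gate genes Cd4 and Cd8a, 10 separated downward and 0 upward on the TCR scale. The shares of all genes were 10.8% and 3.37%. In CPM 9 of the 12 separated downward and 0 upward, beside 18.9% and 18.6% of all genes. The median log2 difference of the 12 was -1.67 in CPM and -1.66 on the TCR scale. At an unadjusted p under 0.05, 6 of the 18 were lower and 0 higher, beside 1.75% and 2.18% of all genes. DESeq2 called 4 of the 18, Icos, Cd8b1, Cd28 and Cd5, all lower, beside 0.116% of all genes.

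Cd8a, which the sort selected, overlapped on the TCR scale, at 336 and 278 against 306 and 257, and its log2 difference changed sign from 0.44 in CPM to -0.13. Cd8b1, which encodes the chain that makes the αβ form of CD8, stood at 134 and 199 CPM in NK1.1- ILTCk and at 34.8 and 20.2 CPM in NK1.1+ ILTCk, and at 94.5 and 192 against 12.0 and 35.3 per 1000 TCR counts. Both NK1.1+ libraries lay below both NK1.1- libraries on either scale. The log2 difference was -2.60 ± 0.48 in CPM and -2.60 ± 1.34 on the TCR scale, the latter with an unadjusted p of 0.0519. PD1+ Tconv held 721 and 879 CPM, above both ILTCk groups. Cd4, which the NK1.1+ gate excluded, stood at 23.9 and 29.6 against 4.81 and 10.5 per 1000 TCR counts.

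Icos stood at 35.6 and 71.0 against 7.63 and 7.44 CPM and at 25.1 and 68.6 against 2.63 and 13.0 per 1000 TCR counts, with a log2 difference of -2.82 ± 0.46 in CPM. Cd28 stood at 45.7 and 63.1 against 6.34 and 15.9 CPM, and at 32.2 and 61.0 against 2.19 and 27.8 on the TCR scale. NK1.1+ replicate 2 reached close to the lower NK1.1- library for Cd28 but did not overlap it. Cd5, a surface brake on the T cell receptor whose level follows the strength of self-recognition in the thymus, stood at 35.8 and 27.9 against 6.47 and 1.67 CPM. On the TCR scale Cd5 was 25.2 and 27.0 against 2.23 and 2.92, and the NK1.1+ libraries differed 1.31-fold from each other. Cd6, a relative of Cd5, stood at 86.6 and 74.8 against 15.2 and 35.6, and Ctla4, an inhibitory partner of Cd28's ligands, at 11.5 and 28.6 against 2.71 and 5.20, per 1000 TCR counts. In all 5 genes the groups did not overlap on either scale.

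**Figure D4:**
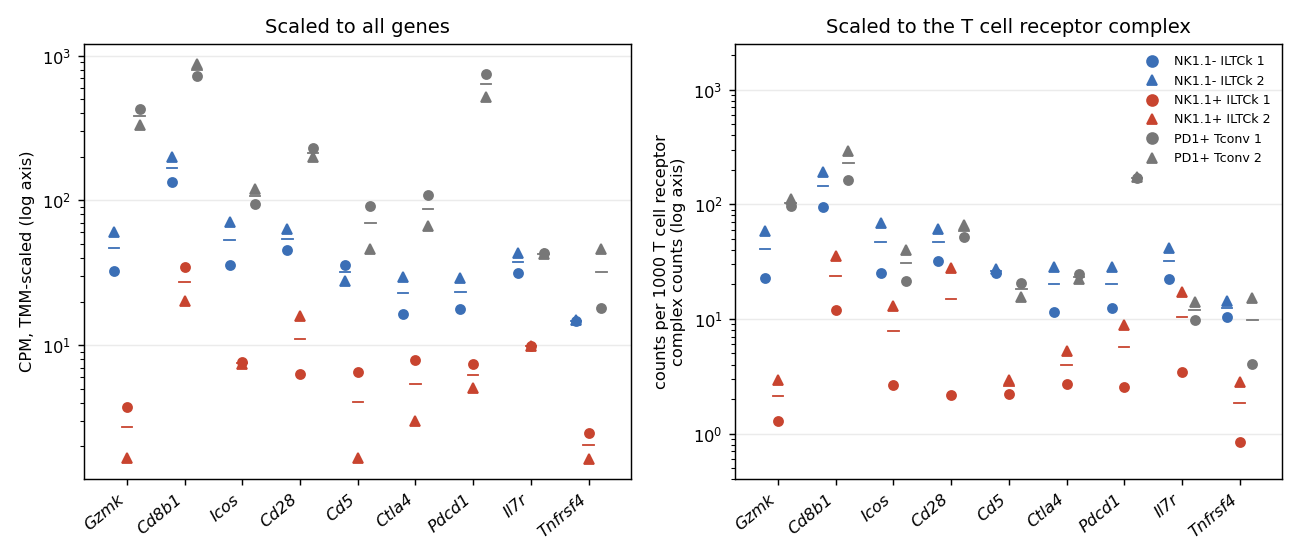
Levels of 9 transcripts of conventional T cells in the ILTCk libraries and in PD1+ Tconv, in CPM (left) and in counts per 1000 TCR counts (right), both on log axes, with short lines at the group means. The NK1.1+ libraries are the lowest of the 3 groups for each gene in CPM, and NK1.1+ replicates lie below both NK1.1- libraries for each gene in both panels. The 9 were picked for the figure, and Pdcd1 is a gate gene. Of all genes, 18.9% lay below in CPM and 10.8% on the TCR scale.

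Of the 18 inhibitory and exhaustion genes, 5 separated upward and 2 downward on the TCR scale, beside 3.37% and 10.8% of all genes. In CPM 4 separated upward and 2 downward, beside 18.6% and 18.9% of all genes. The downward share on the TCR scale and the upward share in CPM were close to those of all genes. Without Pdcd1, a gate gene, the counts were 5 and 1 of 17 on the TCR scale and 4 and 1 in CPM. Pdcd1 (PD-1), on which the NK1.1+ gate was negative, stood at 17.7 and 29.2 CPM in NK1.1- ILTCk and 7.41 and 5.05 CPM in NK1.1+ ILTCk, against 752 and 518 CPM in PD1+ Tconv. It was a DESeq2 call, and a gene that the gate of at least 1 group used. Btla, an inhibitory receptor of lymphocytes, stood at 9.13 and 9.69 against 1.45 and 2.37 per 1000 TCR counts. Vsir (VISTA) and Cd38 were higher in CPM, but stood at 114 and 78.2 against 91.8 and 962 and at 57.7 and 38.8 against 71.8 and 527 per 1000 TCR counts, with the high value in NK1.1+ replicate 2. The macrophage list was highest in the same library, and its part in the levels of Vsir and Cd38, and of Irf8, Il4ra, Il10, Ccl3 and Ccl4, which on the TCR scale were also highest there, was not tested. Il10 stood at 1.75 and 2.47 against 1.68 and 72.9, per 1000 TCR counts.

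Of 19 naive and recirculation genes, 0 separated upward and 4 downward on the TCR scale, beside 3.37% and 10.8% of all genes. In CPM 0 separated upward and 8 downward, beside 18.6% and 18.9% of all genes. Il7r (the interleukin 7 receptor chain of naive and memory cells) stood at 31.7 and 43.3 against 9.91 and 9.87 CPM, and at 22.4 and 41.9 against 3.42 and 17.3 on the TCR scale. Ccr7, which guides cells to lymph nodes, stood at 23.9 and 14.5 against 1.91 and 5.12 per 1000 TCR counts. Ly6c2 stood at 341 and 979.5 against 151 and 185 CPM, and on the TCR scale its groups overlapped, at 240.4 and 947 against 52.3 and 323. Tcf7 (TCF-1, a factor of naive and stem-like T cells) stood at 30.8 and 26.1 against 6.59 and 24.8 per 1000 TCR counts, with NK1.1+ replicate 2 close to the NK1.1- libraries. For Il7r, Ccr7 and Tcf7, the NK1.1+ values lay below both NK1.1- libraries on either scale. Il7r was called by DESeq2.

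The 9 markers of CD4 helper and regulatory cells summed to 74.8 and 107 counts per 1000 TCR counts in NK1.1- ILTCk and to 21.7 and 59.4 in NK1.1+ ILTCk, and 1 of the 9 was at 0 in NK1.1+ replicate 2. Of the 9, 5 separated downward and 0 upward on the TCR scale, beside 10.8% and 3.37% of all genes. In CPM 4 separated downward and 1 upward, beside 18.9% and 18.6% of all genes. Cd4, which the NK1.1+ gate excluded, is in the sums and among those that separated downward on both scales. Tnfrsf4 (OX40) stood at 10.3 and 14.4 against 0.847 and 2.84, and Cd40lg at 6.49 and 12.3 against 0.709 and 0.946, per 1000 TCR counts. Both were DESeq2 calls with lower levels, and neither overlapped. The part of CD4 T cells in these differences was not tested.

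Of 28 transcription factors of the killer and innate-like programmes, 0 were higher and 3 lower at an unadjusted edgeR p under 0.05. The shares of all genes were 2.18% and 1.75%. On the TCR scale 3 separated upward and 5 downward, beside 3.37% and 10.8% of all genes. In CPM 6 separated upward and 8 downward, beside 18.6% and 18.9% of all genes. Eomes, which drives memory CD8 and NK programmes, stood at 6.87 and 7.06 against 3.35 and 1.40 CPM and at 4.85 and 6.83 against 1.16 and 2.44 per 1000 TCR counts, so both NK1.1+ libraries were lower. Bcl11b, a keeper of T cell identity, stood at 23.0 and 15.1 against 4.41 and 6.70, and Runx2 at 10.3 and 15.1 against 3.10 and 8.83, per 1000 TCR counts. Each of the 3 had an unadjusted p under 0.05 in CPM and lay below without overlap on both scales. They are the members of the list with the smallest p. Tbx21 (T-bet) overlapped between the groups, at 45.4 and 21.7 against 81.5 and 24.1 CPM. Zbtb16 (PLZF, the factor of natural killer T cells) was low in all, at 0.915 and 0.410 against 2.41 and 3.38 CPM. Irf8 stood at 52.8 and 23.6 against 138 and 114 CPM, and at 37.2 and 22.8 against 47.7 and 199.6 per 1000 TCR counts.

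The common gamma-chain cytokine signalling list had 4 of 23 members separating upward and 3 downward on the TCR scale, beside 3.37% and 10.8% of all genes. In CPM 5 separated each way, beside 18.6% and 18.9% of all genes. Il2rb, the β chain that receives interleukins 2 and 15, stood at 243 and 96.0 counts per 1000 TCR counts in NK1.1- ILTCk and 368 and 365 in NK1.1+ ILTCk. The NK1.1+ libraries differed 1.01-fold from each other and lay above both NK1.1- libraries, which were farther apart. Its CPM difference turned negative without NK1.1+ replicate 1. Il18rap stood at 12.6 and 19.7 against 3.85 and 9.22, per 1000 TCR counts. Il4ra stood at 52.8 and 45.7 against 54.6 and 1066 per 1000 TCR counts, with the high value in NK1.1+ replicate 2. The cytokine list gave both directions too. Ccl3 stood at 21.2 and 20.5 against 24.2 and 189 and Ccl4 at 63.7 and 68.6 against 78.5 and 306 per 1000 TCR counts, where NK1.1+ replicate 1 was close to the NK1.1- libraries. Xcl1, a chemokine that draws cross-presenting dendritic cells, stood at 198 and 146 against 294 and 326 per 1000 TCR counts, above in both libraries, although its CPM difference turned negative without NK1.1+ replicate 1. Ifng stood at 12.2 and 24.5 against 2.85 and 10.0 per 1000 TCR counts, below in both.

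Tnfrsf9 (4-1BB), a costimulator induced by antigen and by inflammatory signals, stood at 128 and 79.5 CPM in NK1.1- ILTCk and 727 and 137 CPM in NK1.1+ ILTCk. Per 1000 TCR counts it was at 90.0 and 76.9 against 251 and 239.7, higher in both libraries with a mean 2.94 times that of NK1.1- ILTCk. Its log2 difference in CPM went from 2.06 to 0.40 without NK1.1+ replicate 1. Among 18 residency and adhesion genes, 1 separated upward and 3 downward on the TCR scale, beside 3.37% and 10.8% of all genes. In CPM 1 separated upward and 2 downward, beside 18.6% and 18.9% of all genes. Itgae (CD103) overlapped, at 245 and 131 against 330.3 and 225 per 1000 TCR counts. Itga1 (CD49a) stood at 45.0 and 40.4 against 38.6 and 20.8 per 1000 TCR counts. Its log2 difference changed sign from 0.23 in CPM to -0.52 on the TCR scale. Mki67 stood at 22.8 and 51.9 against 6.96 and 16.1, below in both, and is one of the 8 of 32 cell cycle genes that separated downward on the TCR scale, where 0 separated upward. The shares of all genes on that scale were 10.8% downward and 3.37% upward. In CPM 3 of the 32 separated upward and 3 downward, beside 18.6% and 18.9% of all genes. Of the 32, 22 had a CPM log2 difference above 0. The list's median was 0.18 in CPM and 0.27 on the TCR scale, so the list had no one direction. Ifit1 stood at 32.7 and 156 against 12.3 and 24.6 CPM, and 0 of 28 interferon-stimulated genes separated either way on the TCR scale. Of 16 glycolysis genes, 0 separated on that scale, where 3.37% of all genes separated upward and 10.8% downward. In CPM, 3 interferon-stimulated genes separated downward, and 3 glycolysis genes upward and 1 downward. Of all genes, 18.6% separated upward and 18.9% downward in CPM.

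**Figure D5:**
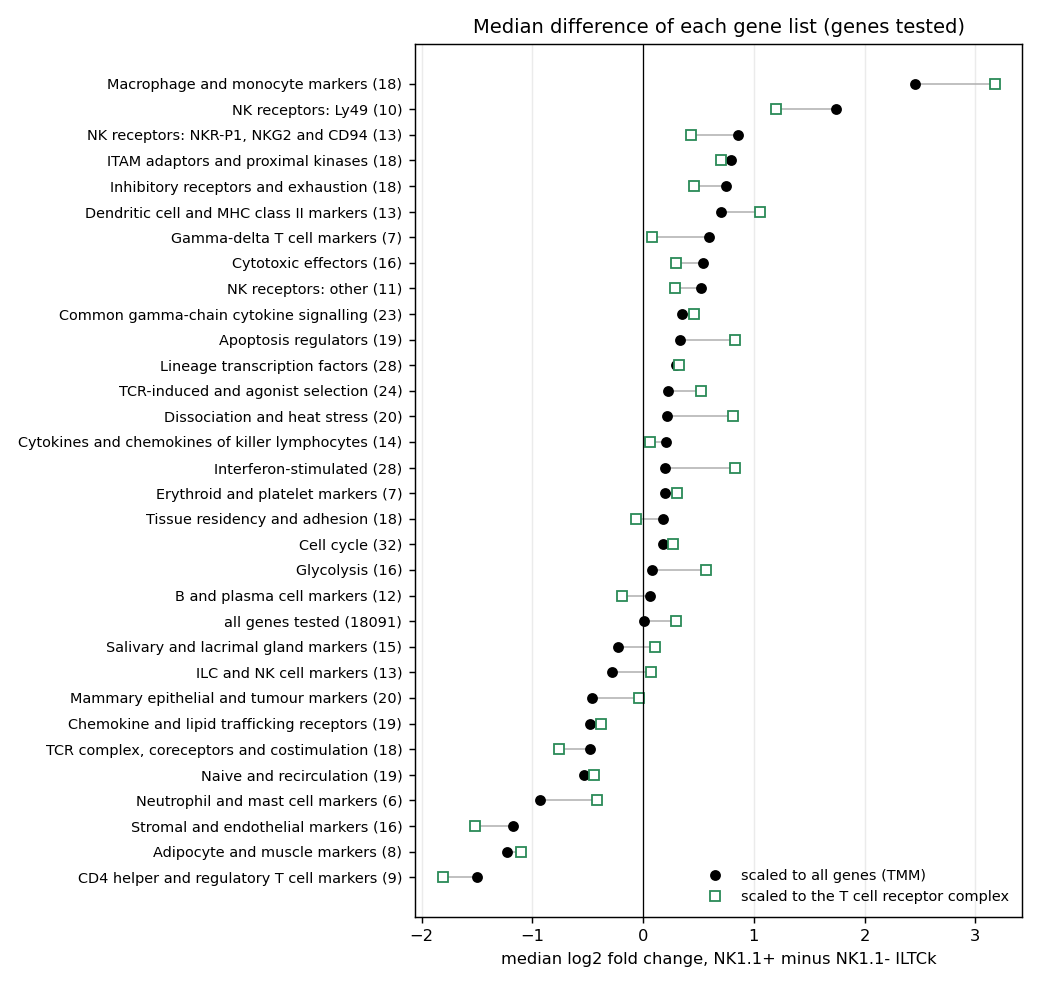
Median log2 difference of NK1.1+ minus NK1.1- ILTCk for each gene list, with filled circles for CPM and open squares for the TCR scale, and the number of genes tested in brackets. The macrophage list is farthest to the right at 2.45 and 3.17, and the Ly49 list stands at 1.74 and 1.20. The CD4 helper and regulatory list is farthest left at -1.50 and -1.81. That last list holds Cd4, which the NK1.1+ gate excluded and whose own TCR-scale value was -1.81.

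The 10 genes that the naming rule picked as higher were Slco2b1, Cd5l, Pla2g15, Tlr1, Csf1r, Tyrobp, Dok3, Clec4a3, Ms4a4a and Tmem86a. In 9 of them both PD1+ Tconv libraries lay below both NK1.1- libraries in CPM. The share of all genes that did so was not computed, so this count is a description only. Of the 10, 1 is on the macrophage list, and Cd5l, the macrophage protein described above, is not on it. On the TCR scale all 10 were higher in NK1.1+ replicate 2 than in replicate 1, from 3.67-fold for Tyrobp to 40.5-fold for Cd5l. The part of macrophages in these 10 differences was not tested. The gene on the list is Csf1r, the growth factor receptor that macrophages need. Csf1r stood at 192 and 88.8 against 689 and 1493 CPM, a log2 difference of 2.96 ± 0.62. On the TCR scale it was 135 and 85.9 against 238 and 2611, so NK1.1+ replicate 2 supplied most of the difference. C1qa, a complement component made by macrophages, stood at 102 and 157 against 244 and 3360.4 per 1000 TCR counts, and Adgre1 (F4/80) at 50.8 and 59.1 against 106 and 1028. All 18 macrophage markers were above 0 in log2 difference on both scales. Of the 18, 12 separated upward in CPM and 9 on the TCR scale, beside 18.6% and 3.37% of all genes. In CPM 13 were higher at an unadjusted edgeR p under 0.05, beside 2.18% of all genes. The 13 dendritic cell and class II genes summed to 4091 and 2239 counts per 1000 TCR counts in NK1.1- ILTCk and 5142 and 16369 in NK1.1+ ILTCk, with 1 at 0 in NK1.1+ replicate 2. Of the 13, 5 separated upward and 2 downward on the TCR scale, beside 3.37% and 10.8% of all genes. In CPM 4 separated upward and 2 downward, beside 18.6% and 18.9% of all genes. Ccr7, which this list also holds, had its smallest p and was lower, with a CPM log2 difference of -2.53. Cd74 and H2-Eb1, of class II antigen presentation, were highest in NK1.1+ replicate 2 on the TCR scale. Cd74 stood at 1487 and 528 against 1881 and 5079 and H2-Eb1 at 667 and 425 against 852 and 3063 per 1000 TCR counts. Restricting the named genes to those that thymic T cells also express gave Slc37a2, Unc93b1, Fcer1g, Hexa, Slc43a2, Sh3tc1 and Ncf1 in place of 7 of the 10, and Unc93b1 stood at 113 and 85.0 against 138 and 1581, per 1000 TCR counts.

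The 10 picked as lower were Gzmk, Icos, Cd8b1, Il7r, Cd28, Cd5, Trip11, Akap9, Apc and Ifit1bl1. In 8 of them both PD1+ Tconv libraries lay above both NK1.1- libraries in CPM. The share of all genes that did so was not computed, so this count is a description only. All 10 kept their sign on the TCR scale and 9 still separated there, where 10.8% of all genes lay below. The rule had required separation in CPM in these same libraries, so these counts are no independent support. Trip11, Akap9 and Apc are broadly expressed genes with long transcripts. They stood at 25.4 and 28.8 against 9.96 and 7.75, 37.5 and 55.4 against 17.4 and 9.29 and 27.1 and 32.7 against 10.1 and 8.20 CPM. Genes with transcripts over 8 kb had a median log2 difference of -0.20 in CPM, where genes of 2 to 4 kb stood at 0.15, and the part of transcript length in these 3 was not tested. Ms4a4b, a membrane protein of T cells, stood at 337 and 584 against 158 and 92.0 CPM in the list of thymic T cell genes.

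Markers of tissue cells were uneven between the groups. The 16 stromal and endothelial markers summed to 891 and 792 counts per 1000 TCR counts in NK1.1- ILTCk, against 170.3 and 553 in NK1.1+ ILTCk. On that scale 8 separated downward and 0 upward, beside 10.8% and 3.37% of all genes. In CPM 6 separated downward and 2 upward, beside 18.9% and 18.6% of all genes. Lum and Dcn, proteoglycans of fibroblasts, stood at 3.56 and 7.62 against 0.200 and 0.0788 and at 24.8 and 31.9 against 3.87 and 2.29, per 1000 TCR counts. Mammary markers summed to 14607 and 15099 CPM against 9933 and 11020 CPM. In CPM 2 of the 20 had a log2 difference above 0, and 0 separated upward and 8 downward, beside 18.6% and 18.9% of all genes. Relative to the T cell receptor the sums overlapped, at 10297 and 14597 against 3428 and 19271 per 1000 TCR counts. On that scale 10 of the 20 had a log2 difference above 0, and 0 separated upward and 2 downward. The shares of all genes there were 3.37% and 10.8%. Csn2, a milk casein, stood at 198 and 1.82 against 17.4 and 1.31 CPM, and Krt14 at 29.0 and 81.8 against 15.0 and 22.4 CPM. On the TCR scale the groups overlapped for Krt14, at 20.5 and 79.1 against 5.18 and 39.2. The gland list was high in 3 of the 4 libraries, as the shares above show, and its members differed in where they were high. Bpifa2, a salivary protein, stood at 34729.6 and 206 against 890.2 and 142 CPM, and Amy1, salivary amylase, at 3782 and 18.3 against 63.1 and 10.2, both high in NK1.1- replicate 1. Their log2 differences of -5.08 and -5.70 became 1.33 and 1.01 without that library. The reference group also carried gland transcripts, at 1145 and 260620.0 CPM of Bpifa2.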

How the data were processed

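The values are whole-number counts of reads per gene, described as raw counts per the labels, in the table the authors deposited for the tumour libraries (50508 symbols). Not given in the sources used here: aligner, counting program, annotation. The build (mm10) and the authors' use of DESeq are per the submitters' processing notes. All 6 libraries of that table were fitted with edgeR 4.0.16 (R 4.3.3; filterByExpr, TMM, robust glmQLFit, glmQLFTest, two-sided), with Benjamini-Hochberg adjustment over 18091 genes and a call at an adjusted p under 0.05. Alternatives used DESeq2 1.42.0, limma-voom (limma 3.58.1) and library sizes set to the 6 T cell receptor complex genes. The scripts were tested on simulated data. The mitochondrial genes held 0 counts, so no mitochondrial share exists. Transcript lengths came from GENCODE M21 on GRCm38 and matched 97.1% of tested genes, and promoters came from RefSeq.

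The comparison, the 31 gene lists and the alternatives were chosen with earlier results of these data known. Named genes were a set list (Klrb1c, Pdcd1, Cd8a, Cd8b1, Cd4, Cd5, Fcer1g, Tyrobp, Gzmb, Gzma, Il2rb, Zbtb16, Tbx21, Eomes, Itgae, Itga1 and the 6 receptor complex genes), up to 4 members of each list with the smallest p, and 10 genes per direction with the smallest p, a mean log2 CPM of at least 4 and no overlap between groups, over all genes and over genes with at least 10 CPM in thymic T cells. Receptor segments, predicted, Rik, mitochondrial and ribosomal protein genes were left out. Some members that the list rule picked are not described here, among them Klra4 and Klra8 of the Ly49 list. Klrd1, Klra5, Klra7, Cd244, Sh2d1b1, Lat, Lat2, Cd6, Tcf7, Ccl22, Slc16a11 and Apol7c were named after their values were seen. Replicate libraries correlated at 0.95 (NK1.1-) and 0.93 (NK1.1+) in log2 CPM. The thymic and single-cell libraries were not analysed here, apart from the thymic levels used in the rule above.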

Additional observations from a re-analysis of the deposited data

How the results depend on the processing

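No gene was called by edgeR under the TCR scale, Cd3 scaling, RLE and upper-quartile scaling, at least 50 counts in 2 libraries, thymic T cell genes alone, the 4 libraries alone, glmTreat against 1.5-fold, each library left out and the replicate block, nor by limma-voom. DESeq2 called 57, DESeq2 on the TCR scale 5, and edgeR without the low-count filter 167, of which 156 had passed that filter; the cause was not tested. Deviations of same-numbered libraries from their group means correlated at 0.39 between NK1.1- and NK1.1+ ILTCk. With 2 numbers and no label saying what a number marks, the libraries were taken to share only a number, and no block was used in the report. The replicate block moved the genes at an unadjusted p under 0.05 from 712 to 1375, changed no call, left Itga1 at -0.50, and gave 1 of 10 Ly49 genes, Klra17, an unadjusted p under 0.05 (0.0202). Leaving out one library gave 211 to 1407 such genes. Of 100 named genes, 78 kept their sign in all settings. Signs turned on the TCR scale with 6 genes for Cd8a (-0.13), Itga1 (-0.52), Cd3d (-0.016) and Trbc2 (-0.0028), with the same values in DESeq2 on that scale and in the 4 libraries alone and, except Itga1, in thymic genes alone, the last pair chosen after seeing the data. With Cd3e, Cd3d and Cd3g alone they were -0.29, -0.69, -0.18 and -0.16, and Cd3g -0.047. limma-voom gave Cd8a -0.034 and Itga1 -0.50. The fitted fold change of 53 of the 100 named genes moved by over 1.5 times without NK1.1+ replicate 1, of 56 without NK1.1+ replicate 2, of 34 without NK1.1- replicate 1 and of 15 without NK1.1- replicate 2. Leaving out one library turned the sign of 22 named genes. The CPM-scaled log2 difference then ranged for Cd8a from -1.38 to 1.21, Gzmb from -0.27 to 2.20, Il2rb from -0.092 to 2.68, Tbx21 from -0.48 to 1.29, Itgae from -0.91 to 2.00, Itga1 from -2.15 to 1.08, Cd3e from -0.72 to 1.76 and Cd3d from -1.06 to 1.24. It ranged for Cd3g from -1.07 to 1.42, Trac from -1.51 to 0.63, Trbc1 from -1.43 to 0.62, Trbc2 from -1.08 to 1.21, Klrc2 from -0.16 to 2.01, Klrb1a from -0.25 to 2.90, Klrd1 from -0.56 to 1.56 and Klra5 from -0.13 to 2.20. Further ranges were Klra7 from -0.070 to 2.88, Cd244 from -0.22 to 2.71, Xcl1 from -0.21 to 1.98, Amy1 from -7.55 to 1.01, Bpifa2 from -6.94 to 1.33 and Csn2 from -6.26 to 2.36. Of 128 list medians under other scalings, 13 moved by more than the replicate spread. Of the 22 genes, 17 turned without NK1.1+ replicate 1, the library richest in T cell receptor counts. With 12684 receptor complex counts, NK1.1+ replicate 2 sets the counting error of the TCR scale, and 2 libraries a group leave little room to estimate spread.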

Other observations

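Receptor variable segments were spread widely in both ILTCk groups of these mice, which were labelled retrogenic. The most used Trav segment took 8.59% (95% exact binomial interval 7.40 to 9.90) and 7.28% (5.42 to 9.54) of Trav counts in the NK1.1- libraries, and 4.97% (4.00 to 6.09) and 8.59% (5.64 to 12.4) in the NK1.1+ libraries. For Trbv the shares were 13.1% and 12.7% against 14.1% and 12.4%. A different segment led in each of the 4 libraries, for either chain. In PD1+ Tconv the leading segment took 27.8% and 18.6% of Trav and 25.2% and 36.3% of Trbv counts. The intervals cover counting error only, and near-identical segments can share reads.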
